A study of Mus musculus with 14 samples.

Results

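Trimethylation of lysine 27 of histone H3 (H3K27me3) is a mark of repressed chromatin, and 440 regions carried it in both lists from Phf19 knockout (KO) stem cells and in neither control list. These members were selected on the measured lists themselves. The 4 lists of marked regions were merged wherever regions overlapped or touched, and a merged region was kept when it contained regions from KO replicate 1 and from KO replicate 2 but none from either control replicate. Chromosomes X, Y and M were left out. The merge gave 9067 regions on the 19 autosomes, so the members were 4.85% of them, a share that the rule itself fixes. The mirror class, which control lists held in common and KO lists lacked, had 16 regions or 0.176%. The 2 counts had unlike ceilings. Both control lists held 613 merged regions in common, against 2316 for both KO lists. The list of control replicate 2 had 891 autosomal regions, against 5922 and 4414 for KO replicates 1 and 2.

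The marked chromatin came from mouse bone marrow, depleted of lineage-positive cells and taken as CD150-positive haematopoietic stem cells (HSCs), with 2 libraries of floxed control mice and 2 of PHF19 KO mice. The labels call both control libraries floxed, whereas the header line of the list of control replicate 1 reads WT. The labels do not state the strain or age of the mice, the Cre that removes the floxed gene, or whether animals were pooled. Chromatin was immunoprecipitated with a rabbit polyclonal antibody by a kit for low cell numbers. Nothing in the labels says that replicates came from separate animals. Region lists hold no transcript levels, so the sorted cell type could not be checked against its markers here.

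Polycomb repressive complex 2 (PRC2) places this mark through its enzyme subunits Ezh2 or Ezh1, and the mark is best known at CpG-rich promoters of developmental genes that a cell keeps silent. Phf19 is one of the Polycomb-like proteins, accessory subunits that help PRC2 reach chromatin. In blood stem cells PRC2 is known to hold genes of other lineages and of differentiation in check. All positions below are in mouse build mm9, counted from 1. No annotation or sequence of that build was used here, so the regions are given by position, without genes and without bases.

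Both KO lists together marked 2316 merged regions, and the members were 19.0% of these (95% Wilson interval 17.5% to 20.6%, which covers counting error only). Another 1319 (57.0%) were also in control replicate 1, 72 (3.11%) also in control replicate 2, and 485 (20.9%) in all 4 lists. In these classes a control region can join KO regions that do not meet each other, which cannot happen in a member. The smallest stretch shared by the KO lists was 0 bp among the 1319 and 46 bp among members. Absence from control replicate 1 was the narrower condition, met by 512 regions (22.1%). Absence from control replicate 2 was met by 1759 regions (75.9%), and this list was short, with 891 autosomal regions against 4038 for control replicate 1 and, for the KO lists, 5922 (replicate 1) and 4414 (replicate 2). Of the 512 regions absent from control replicate 1, control replicate 2 held 72 (14.1%, interval 11.3% to 17.3%). Of the 1804 that control replicate 1 did hold, it held 485 (26.9%, interval 24.9% to 29.0%). Without control replicate 1, merging only the other lists, the rule would give 1756 regions, and without control replicate 2 it would give 512. In the mirror direction, 16 of the 613 regions of both control lists (2.61%) had no KO region. The largest class of exactly 2 lists was neither of these: 969 regions were in both replicate 1 lists alone, and 57 in both replicate 2 lists alone. With 2 libraries a group, an exact two-sided permutation test cannot go below p = 0.333, and the count follows from the rule, so no test is given. In a list from many cells, a mark carried by fewer cells and a weaker mark in every cell cannot be told apart. Read depth behind the lists is unknown.

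Members made up a larger share of the low-scoring both-KO regions than of the high-scoring ones. Each deposited region has a score of the authors' peak caller, none below 50, which was used only to rank regions within a list. A score percentile of 90 means that 90% of the regions of that list score no higher. Among both-KO regions whose lower percentile of the 2 lists was under 20, 36.4% were members (106 of 291, interval 31.1% to 42.1%). From there the share was 29.8% at 20 to 40, 20.3% at 40 to 60 and 11.3% at 60 to 80. At 80 and above it was 4.40% (16 of 364, interval 2.72% to 7.02%). Absence from control replicate 1, whether or not control replicate 2 held the region, went from 39.9% in the lowest class to 7.14% in the highest. Members were 440 of the 512 regions absent from that list, so this is largely the same trend by construction. Absence from control replicate 2, which also includes every member, went from 89.0% to 53.3%. Width was taken as the bases marked by the KO lists, since control regions widen the merged regions of non-members. By this width 28.3% of regions of 1 to 2 kb were members (113 of 399), against 18.3% at 2 to 3 kb, 14.3% at 3 to 4 kb, 12.6% at 4 to 5 kb and 21.5% above 5 kb (58 of 270), so the share did not fall steadily. The KO scores and widths stem from the same lists as the rule, so these shares are descriptions.

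**Figure D1:**
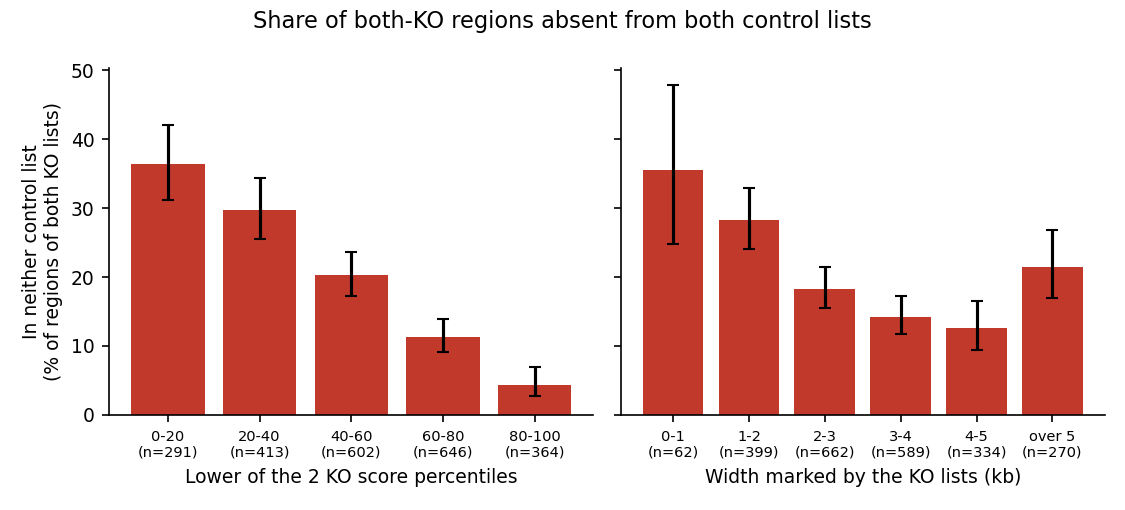
Percent of the regions of both KO lists that neither control list held (y axis), by the lower of the 2 score percentiles (left) and by the width marked by the KO lists in kb (right); bars are shares with 95% Wilson intervals and n is the number of regions of both KO lists. The share was 36.4% in the lowest score class and 4.40% in the highest, and by width 35.5% below 1 kb, 12.6% at 4 to 5 kb and 21.5% above.

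Members lay in the middle of both KO lists by score. In KO replicate 1 their scores ran from 50.02 to 296.83 with a median of 75.4, against a list median of 73.8. In KO replicate 2 they ran from 50.03 to 199.59 with a median of 77.3, against 69.7. The median score percentile was 51.9 for replicate 1 (quartiles 31.8 and 70.1) and 58.8 for replicate 2 (quartiles 37.4 and 77.9). Regions of all 4 lists stood at 83.0 and 81.1, and regions found in 1 KO list alone at 27.1 and 27.4. The 1319 regions that control replicate 2 alone lacked stood at 75.6 and 65.4. The 72 regions that the KO lists shared with control replicate 2 alone stood at 59.8 and 76.4. Of the 440 members, 146 (33.2%) were at percentile 50 or above in both lists, 27 (6.14%) at 75 or above and 4 (0.909%) at 90 or above. For regions of all 4 lists these shares were 77.7%, 42.7% and 15.5%. Ranks in the 2 KO lists went together only weakly, with a Spearman rho of 0.113 over the 440 members and 0.263 over the 485 regions of all 4 lists. It was 0.172 over the 1319 regions and 0.107 over the 72, each value from 1 pair of libraries, so weak agreement was not seen in members alone.

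**Figure D2:**
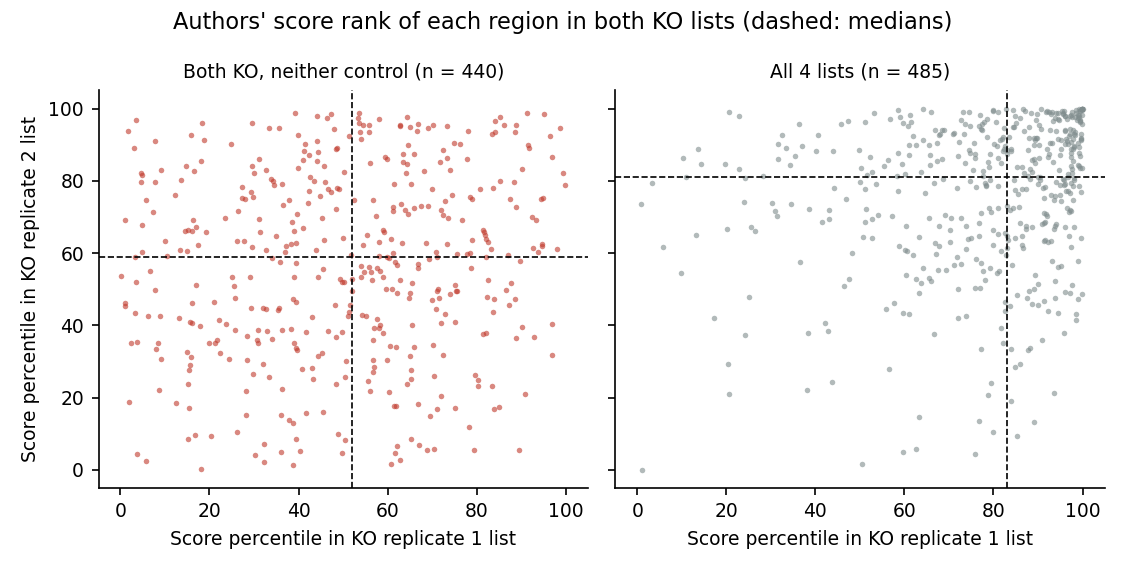
Score percentile of each region in the list of KO replicate 1 (x axis) and of KO replicate 2 (y axis), 1 point per merged region, for the members (left) and for the regions of all 4 lists (right); dashed lines are medians. The members spread over the whole plane around medians of 51.9 and 58.8, while the regions of all 4 lists gather towards high percentiles in both (83.0 and 81.1).

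The members that scored high in both KO lists came from many chromosomes. The leading one, chr5:148534895-148539448, had scores of 174.71 and 186.07 in the lists of KO replicates 1 and 2, ranks 284 and 66 of those lists. It was 4554 bp wide, and the nearest control region, one of control replicate 1, lay 227.5 kb away. The second, chr4:89354422-89356139, scored 224.45 and 142.86 (ranks 72 and 244) over 1718 bp. Its nearest control region lay 161.9 kb away and its nearest region of all 4 lists 9037 kb away. These 2, with chr9:95458424-95462152 (186.26 and 134.17) and chr11:53290815-53294382 (151.66 and 199.59), were the members at percentile 90 or above in both lists. The chromosome 11 region had a control replicate 1 region 5.91 kb away, with a score of 103.26 there, whereas the chromosome 9 region was 73.0 kb from its nearest control region.

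Ranks 5 to 10 by the lower percentile scored 133.41 to 189.72 in the first KO list and 117.19 to 148.90 in the second. They were chr3:101813922-101817559, chr2:113596718-113599698, chr1:63318638-63321318, chr13:8201607-8203244, chr9:53820900-53824470 and chr8:30328295-30330718. Their distance to a control region differed widely: 8.69 kb for the chromosome 3 region and 16.9 kb for the chromosome 9 region, but 1592 kb and 1696 kb for those on chromosomes 13 and 8. At the other end, chr8:46019692-46021629 scored 50.85 and 50.87, chr7:88542228-88543156 scored 51.41 and 50.44, and chr16:60604708-60605725 scored 54.19 and 51.93. These 3 sat close to the lowest score of either list, and in the chromosome 16 region the KO regions shared 46 bp.

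The marked stretches of the members were wider than those of regions in 1 KO list alone. Members spanned 365 to 7591 bp with a median of 2709 bp and covered 1308 kb in all, 7.41% of the merged length. A merged region is at least as wide as each part, so the parts were compared within a list. In KO replicate 1 the median width was 2498 bp in members, 3355 bp in regions of all 4 lists, 2929 bp in regions that control replicate 2 alone lacked, and 718 bp in regions of that list alone. In KO replicate 2 the medians were 1558 bp in members, 1855 bp, 1518 bp and 644 bp in the same order. Width and presence in several lists are linked by the merge, and no test is given.

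**Figure D3:**
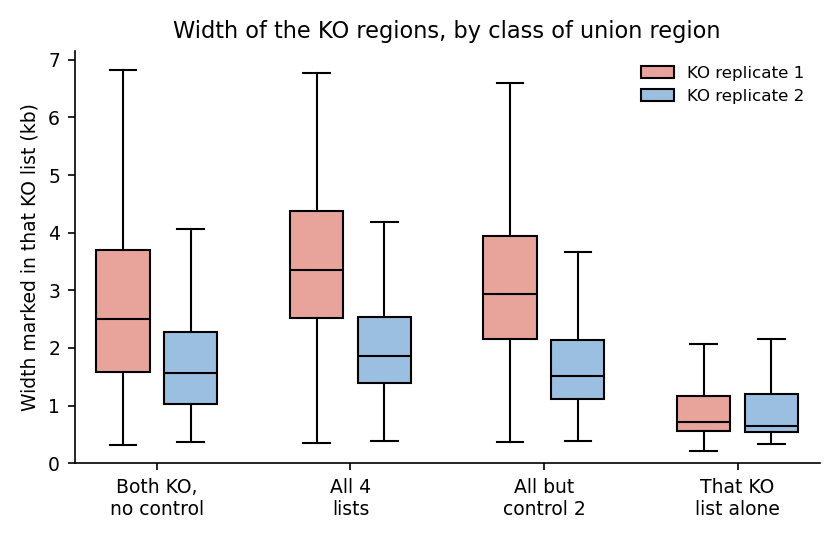
Width in kb marked by KO replicate 1 (red) and KO replicate 2 (blue) in 4 classes of merged region; boxes are quartiles with the median, whiskers reach 1.5 interquartile ranges and more extreme regions are not drawn. In members the medians were 2498 and 1558 bp, against 718 and 644 bp for regions of 1 KO list alone.

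The KO lists outlined most members as 1 region each, of unequal width. Of 440 members, 435 were made of 1 region from each list and 5 of 1 region of KO replicate 1 and 2 of KO replicate 2. The KO replicate 1 part was the wider in 358 members (81.4%). Over all 440 members the median ratio of KO replicate 1 to KO replicate 2 width was 1.64. The KO replicate 2 part lay wholly inside the KO replicate 1 part in 282 (64.1%). For regions of all 4 lists the corresponding values were 89.5%, 1.71 and 75.9%. Bases in both KO lists made up a median of 54.5% of a member (quartiles 41.2% and 68.5%), or 1399 bp, and 6 members had under 20%. Widths in the 2 lists went together, with a Spearman rho of 0.624 over members and 0.573 over regions of all 4 lists.

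None of the 5 widest members was among the 10 with the highest lower percentile. The widest, chr19:44907371-44914961, was marked over 7591 bp by replicate 1 and 6258 bp by replicate 2 of the KO libraries and ranked 4136 of 5922 and 4232 of 4414. The region chr9:57347038-57354567 was marked over 7530 and 4057 bp, with ranks 4267 and 1103. The region chr11:97486847-97494032 had 7186 and 2335 bp and ranks of 5817 and 279, so it was among the last in one list and above percentile 90 in the other. The region chr7:108964948-108971866, with 6919 and 1920 bp, ranked 2111 and 3361. The fifth, chr2:164791827-164798652, with 6826 and 4574 bp, ranked 5642 and 814. Each had a control replicate 1 region 12.1 to 40.6 kb away.

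Members were found on each of the 19 autosomes, from 8 on chromosome 16 to 37 on chromosome 2. With the end of the last region standing for the length of a chromosome, their density was 17.8 per 100 Mb over the autosomes, close to the 19.7 of regions of all 4 lists, but the chromosomes differed. Chromosome 19 had 29.3 members and 17.9 regions of all 4 lists per 100 Mb, and chromosome 14 had 17.6 and 8.79. Chromosome 11 had 19.7 members against 37.8 regions of all 4 lists, chromosome 4 had 14.8 against 32.1, and chromosome 17 had 11.8 against 27.8. Chromosome 9 had 28.3 of each. As a share of both-KO regions, members ranged from 11.7% on chromosome 17 (11 of 94, interval 6.66% to 19.8%) to 28.6% on chromosome 14 (22 of 77, interval 19.7% to 39.5%). These 2 intervals overlap at their ends. Numbers per chromosome of both classes had a Pearson r of 0.550 and a Spearman rho of 0.550 over 19 chromosomes, which share their length as a source.

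**Figure D4:**
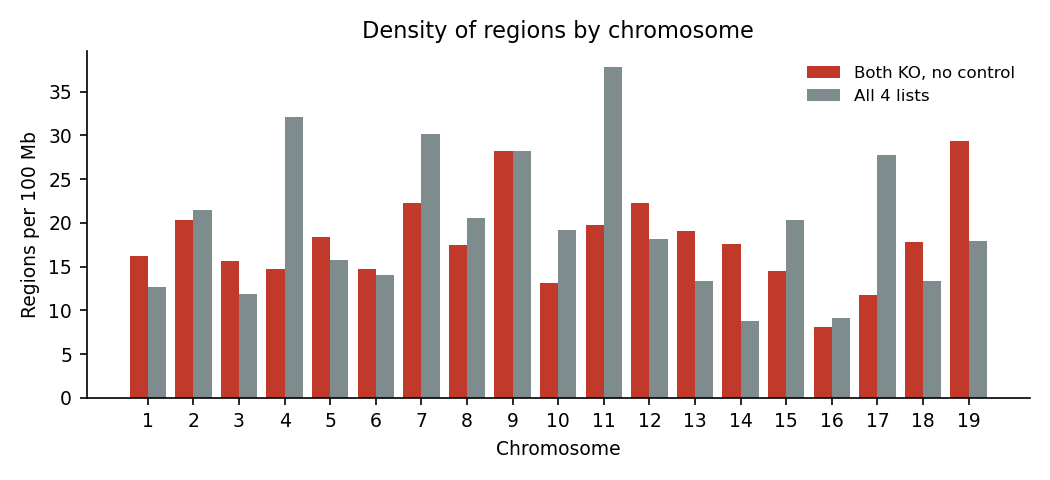
Regions per 100 Mb (y axis) on each autosome (x axis) for the members (red) and the regions of all 4 lists (grey), where the end of the last region stands for chromosome length. Chromosome 19 had 29.3 members against 17.9 regions of all 4 lists, and chromosome 11 had 19.7 against 37.8.

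Regions of all 4 lists were few, with 485 over the autosomes or 19.7 per 100 Mb, and gaps to them were long in every class. The gap that randomly placed regions would have was not computed. The gap, edge to edge, to the nearest region of all 4 lists had a median of 1981 kb (quartiles 543 and 4927 kb), and 2 of 440 members (0.455%, interval 0.125% to 1.64%) were within 10 kb. The median was 1203 kb for regions that control replicate 2 alone lacked, 1286 kb and 1301 kb for regions of KO replicate 1 or 2 alone, and 806 kb between regions of all 4 lists. Within 100 kb lay 5.91% of members, against 10.2%, 8.03%, 7.59% and 16.7% in the same order. The 72 regions that the 2 KO lists shared with control replicate 2 had a median of 2110.4 kb, so the wide spacing was not seen in members alone. Regions are not independent replicates, and these differences are not tested.

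**Figure D5:**
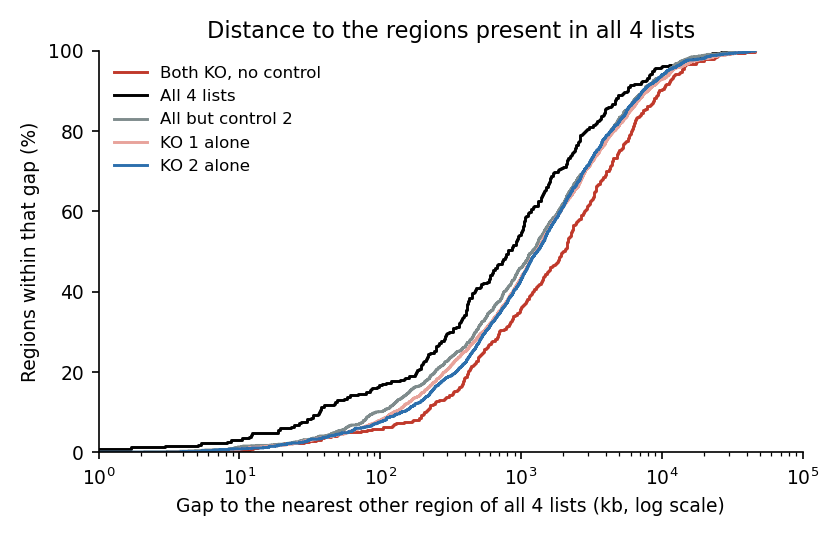
Percent of regions (y axis) whose gap to the nearest other region of all 4 lists is at most the value on the x axis (kb, log scale), for the members and 4 other classes. The members' curve lies to the right of the others from about 100 kb on, with a median of 1981 kb against 1203 to 1301 kb for regions lacking in control replicate 2 alone or found in 1 KO list.

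The 2 members within 10 kb of a region of all 4 lists were both on chromosome 8. The region chr8:87458089-87463171 was 3.69 kb from chr8:87466857-87473288 and scored 75.14 and 66.77 in the KO lists. The region chr8:69220491-69222075 was 7.46 kb from chr8:69210800-69213025, with scores of 85.74 and 82.30. The next nearest were chr4:115633488-115638739 at 11.6 kb, the chromosome 2 region among the widest at 11.9 kb, and chr4:137235565-137239682 at 12.5 kb. Every region of all 4 lists contains control regions, so a shorter median gap to control regions of any kind was largely built in. The median gap from a member to a control region was 180.3 kb, and 25 members (5.68%) had one within 10 kb. For regions of KO replicate 1 or 2 alone the medians were 119.3 and 119.0 kb, with 5.74% and 6.30% within 10 kb. The nearest control region belonged to control replicate 1 for 403 members and to control replicate 2 for 37. These lists held 4038 and 891 autosomal regions, so the longer one was bound to be the nearest more often.

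Regions on either side of the rule's limit are given here without a test. The members closest to a control region had gaps of 111 bp (chr14:31164817-31166654), 160 bp (chr9:86909622-86911739), 631 bp (chr3:133901212-133904008), 834 bp (chr14:112078253-112081683) and 2313 bp (chr19:47416315-47420016). On the other side, the smallest overlaps between KO and control regions among the remaining 1876 both-KO regions were 215, 362, 367, 382 and 384 bp. The median overlap there was 2536 bp and none was under 100 bp. In all, 4 members had a gap under 1 kb.

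Any other merged region lay within 10 kb of 85 members (19.3%, interval 15.9% to 23.3%). This share was 18.6% for regions of all 4 lists, 12.7% for those that control replicate 2 alone lacked, and 12.9% and 17.0% for regions of KO replicate 1 or 2 alone. For 62 of those 85 (72.9%) the neighbour held no control region: it was in KO replicate 2 alone for 28, in KO replicate 1 alone for 22, and another member for 12. Of all 9067 merged regions, 4761 (52.5%) held no control region. The share of such neighbours around regions of other classes was not computed, so it cannot be called particular to members. Neighbouring members at most 100 kb apart formed 20 groups that held 41 members (9.32%), 1 group of 3 and 19 pairs, and 399 members stood singly. The group of 3 lay within 21.1 kb of chromosome 12 with no other merged region between. Its members were chr12:50482393-50487201, which scored 74.91 and 134.88 in the lists of KO replicates 1 and 2, chr12:50490620-50493680 with 190.97 and 59.53, and chr12:50500785-50503453 with 189.6 and 63.97. The last 2 scored above the median of the KO replicate 1 list and below that of KO replicate 2, and the first scored above the median of both.

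The tightest pairs had no merged region between them either. On chromosome 7, chr7:77424103-77427364 scored 63.24 and 76.17 and chr7:77431207-77434069 scored 52.61 and 81.54. On chromosome 2, chr2:18609752-18613153 scored 139.82 and 103.35 and chr2:18619329-18622722 scored 109.85 and 78.30. Chromosome 12 held 2 further pairs. In one, chr12:109553598-109559378 scored 59.08 and 53.64 and chr12:109563647-109569160 scored 52.37 and 109.41. In the other, chr12:120074204-120080373 scored 90.56 and 113.25 and chr12:120084478-120089983 scored 94.30 and 139.74. The leading member by score, on chromosome 5, also stood in a pair, with a second member within a span of 29.0 kb whose scores were 65.20 and 53.01. This partner was named after its values were seen.

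Stricter lists did not keep the same regions. When each list was limited to regions at or above its own median score, the rule gave 380 regions, of which 146 were members and 234 were not. When each list was limited to its 891 highest-scoring regions, it gave 90, of which 14 were members and 76 were not. By construction, the merged region around each of these 234 and 76 regions holds a control region once the whole lists are used.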

How the data were processed

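H3K27me3 regions of 2 control and 2 KO libraries were used, grouped by their titles. The submitters' processing notes name the builds mm9 and dm3 and the tools Bowtie and TopHat. Per the file headers, each list was written by MACS for 1 library. Which version, threshold and input library MACS used is not given in the sources used here. The authors deposited a score with every region, comparable only within its list. Coordinates were taken as deposited and printed with starts counted from 1. Lists were merged and compared with Python 3.11.15 and pandas 2.3.3, and Wilson intervals came from scipy 1.17.1. The merging and gaps were tested on made-up lists. A region was present in a list at an overlap or contact with the merged region of 1 bp or more. Percentiles were taken over the autosomal regions of a list. Regions named by position are the 10 members with the highest lower percentile, the 5 widest, the 5 nearest to a region of all 4 lists, the 5 nearest to a control region, the 3 lowest by score and the largest groups of neighbours, pairs by smallest span. The members and this rule were chosen with earlier results of these data known. Single-cell tables were not used, since they could not be joined to mm9 positions. No result has a test.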

Additional observations from a re-analysis of the deposited data

Results flagged for a closer look

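On chromosome X, which the rule leaves out, 21 merged regions were held by the KO lists in common and by no control list, and 0 by the control lists in common and no KO list. They were 53.8% of the 39 regions that both KO lists held there, with 2 regions in all 4 lists and 15 lacking in control replicate 2 alone. Their median width was 1666 bp, and their median scores were 70.6 in KO replicate 1 and 77.1 in KO replicate 2. Chromosome Y, also left out, had 11 merged regions. Both KO lists held 2 of them, 1 in all 4 lists and 1 in no control list. The sex of the mice is not given in the labels, and its part in the chromosome X count was not tested.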

How the results depend on the processing

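Of 76 values under the alternatives, 45 stayed within 1.5 times (the count), within the interval (shares) or within 1 SD between the KO lists (covered length, width, percentile). That SD rests on 2 values, 1 for each KO list, so it measures the difference between those lists and not the error of a merged value. The count was 448 and 456 with regions merged within 1000 and 5000 bp and 430 with regions of at least 500 bp. With each list at or above its median score, regions meeting the rule were 28.7% of both-KO regions. These were 380 regions, of which 146 were members. Of the 380, 0% lay within 10 kb of a region of all lists. Their median percentiles were 74.1 and 75.3, which the choice raises by construction. At equal list lengths the values were 90 regions, 29.2%, 286 kb, 0%, 92.5 and 89.8. With both KO lists over at least 50% of the region they were 262 regions, 25.2%, 738 kb and a KO replicate 2 percentile of 64.3. Control regions widen the merged regions of non-members, so this filter removes non-members more readily by construction. Leaving out 1 library gave 512 to 2971 regions, 22.1% to 75.9% of the KO regions, 1517 to 5493 kb, a median width of 744 to 2936 bp, 0.801% to 2.54% within 10 kb, and percentiles of 29.9 to 70.3 (KO replicate 1) and 32.0 to 63.5 (KO replicate 2). Where lists were shortened or left out, the regions of all lists were formed anew from those in use. The shares within 10 kb then refer to another set of targets than the main value. The count was 1756 without control replicate 1, 2246 without KO replicate 1 and 2971 without KO replicate 2, since fewer lists are asked. A replicate block, asking only that the KO list of a number hold a region its control list lacks, gave a mean of 3393 over the 2 numbers, a looser condition (3065 and 3721, against 1188 and 232 in the control and not the KO list). Depth behind the lists is unknown.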
